A study of Drosophila melanogaster with 2 samples.

Results

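Sex determination and dosage compensation in Drosophila melanogaster rest on a small set of genes, of which 10 were followed here through the Bab2 peaks of embryos. They are Sxl, da, emc, tra, tra2, dsx, ix, msl-2, mle and mof, chosen by name from 13945 protein-coding genes, 2 of them on the X chromosome and 8 on autosomes. A peak was given to a gene when its summit lay in the annotated gene span or within 5 kb of it. Bab2 (bric-à-brac 2) is a BTB-domain transcription factor, and its locus is known as a target of Dsx in the abdomen, where the sexes differ in pigmentation. The chromatin came from whole embryos of 0 to 24 h, males and females pooled, from 1 transgenic line that stably expresses Bab2 with GFP at its C-terminus. It was sonicated and precipitated with an antibody against GFP. The study had 1 group with 2 libraries, biological replicates 2 and 3, from separate biosamples, so no value can be assigned to males or to females, and the tissues or stages in which a site was bound cannot be told apart.

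In females, the number of X chromosomes turns on the early promoter of Sxl, and the Sxl protein then keeps its own transcript spliced in the productive form. Sxl directs the splicing of tra, and Tra with Tra2 directs the splicing of dsx into its female form. Males lack Sxl protein, translate msl-2 and assemble the dosage compensation complex, which raises transcription from their single X.

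Bab2 peaks were found near most of these genes, but few were at their promoters. The optimal list, the authors' list after their reproducibility threshold, had a summit in the span or within 5 kb of 7 of the 10 genes, namely Sxl, da, emc, tra, tra2, mle and mof (70.0%, 95% Clopper-Pearson interval 34.8 to 93.3%). Over all protein-coding genes this share was 49.2% (6861 of 13945). Within 500 bp of an annotated transcription start site (TSS), there was an optimal summit at Sxl and emc, 2 of the 10 genes (interval 2.52 to 55.6%), and at 20.1% of all protein-coding genes. The intervals here and below cover counting error only. They treat the genes as random draws, whereas the genes were chosen by name with earlier results of these data known. The promoter share was therefore close to the background, and the window share lay above it with an interval that includes it. The 7 genes carried 11 distinct optimal summits in 193 kb of windows over all 10 genes, or 5.71 summits per 100 kb, against 5.17 per 100 kb over the windows of all protein-coding genes. The gene spans had a median of 3994 bp for the 10 genes and 2166 bp for all protein-coding genes.

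**Figure D1:**
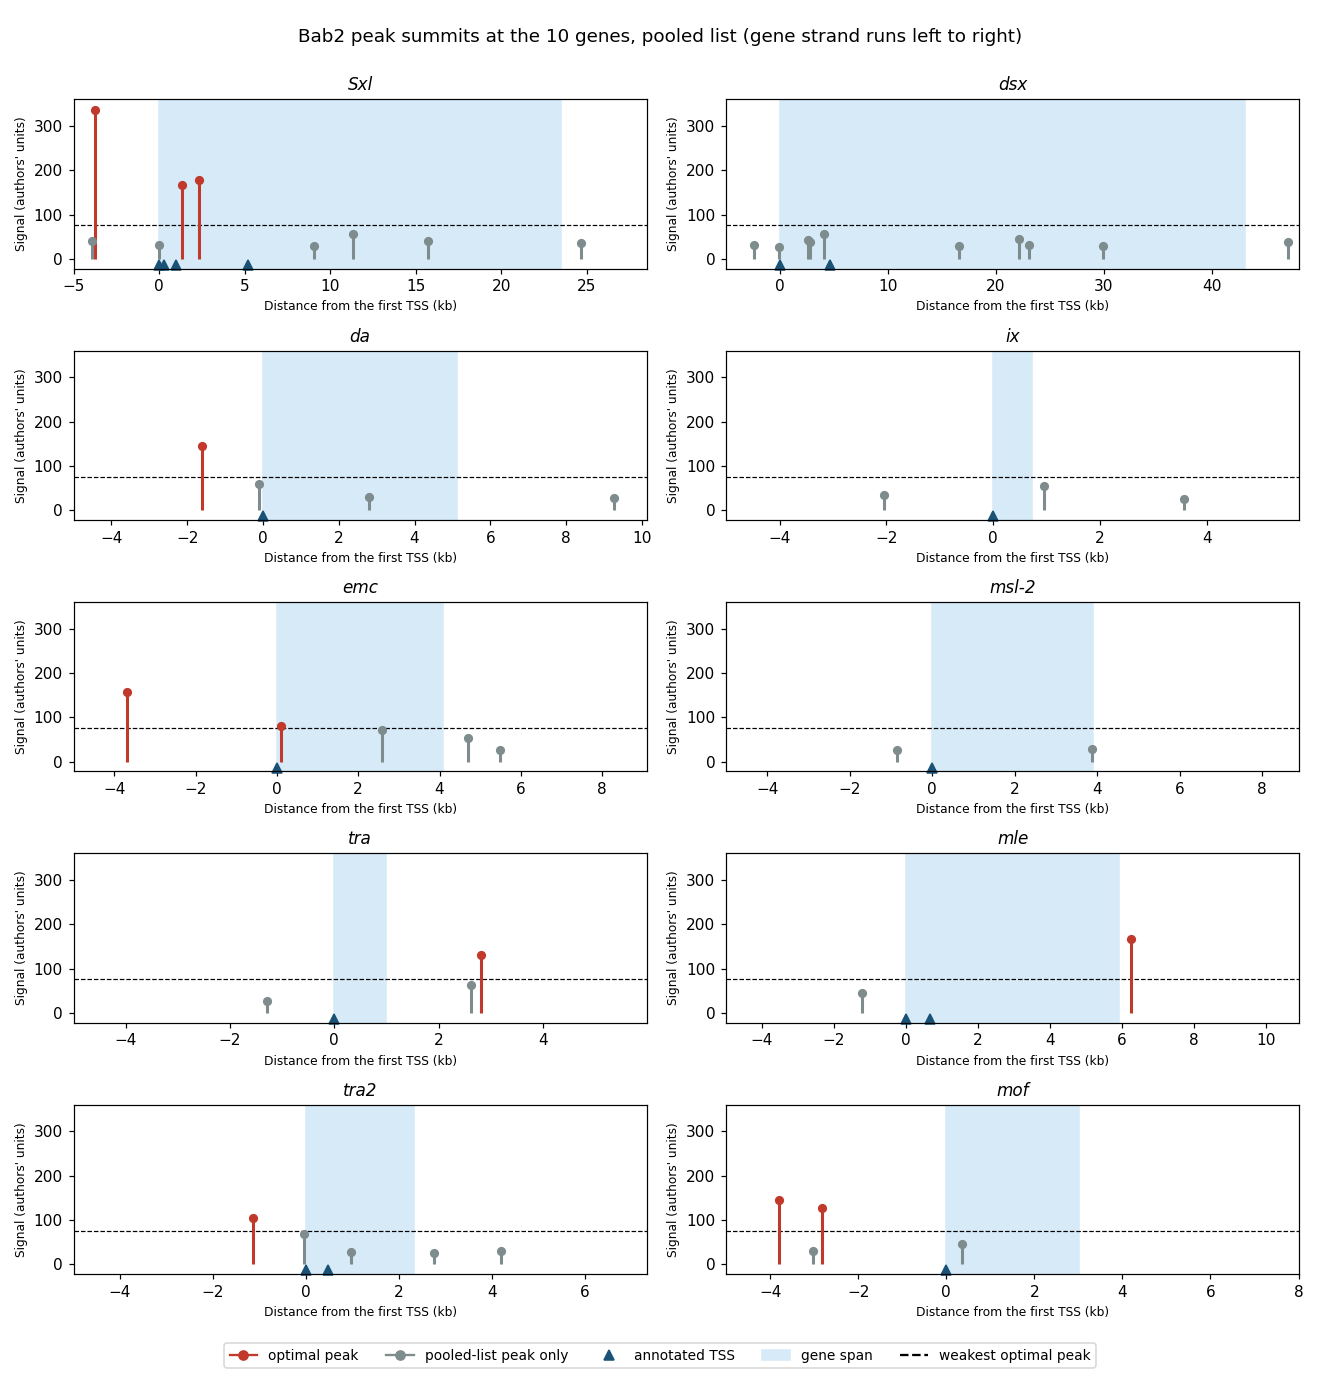
Summits of the pooled list at each of the 10 genes, as signal (the authors' units, vertical axis) against distance from the first TSS in kb (horizontal axis, gene strand running left to right). Red stems are optimal peaks, grey stems pooled-list peaks only, triangles TSSs, and the shading is the gene span; dsx, ix and msl-2 have no red stem, and 3 of the 11 red stems stand inside a gene span.

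The pooled list, called on the reads of both replicates together and holding 24109 peaks, reached further. It had a summit in the window of all 10 genes (interval 69.2 to 100%) and of 86.7% of all protein-coding genes. At promoters it had a summit for 6 of the 10 (Sxl, da, emc, tra2, dsx and mof; 60.0%, interval 26.2 to 87.8%) and for 47.0% of all protein-coding genes. The list of replicate 2 held 27372 peaks and that of replicate 3 held 25804. Replicate 2 had a promoter summit at 7 of the 10, the 6 above and ix, against 48.3% of all protein-coding genes. Replicate 3 had one at the same 6, against 47.4% of all protein-coding genes. Each peak has 1 signal value and no SD, on a scale set by the authors, so signals and ranks are read within a list. Read depths were unstated. The 4720 optimal peaks (signal 76.1 to 2524, median 128) were the 4720 strongest of the pooled list with the same summits, so whether a peak is optimal is here a matter of signal.

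Sxl, the RNA-binding switch gene of female development (FBgn0264270, X:7074550-7098053 in dm6, minus strand), carried the strongest peak among the 10 genes and the most optimal peaks. Its 3 optimal summits lay at 7101783, 7095698 and 7096698. The strongest had a signal of 337 and rank 426 of 4720, and lay 3730 bp upstream of the first Sxl TSS. That position is in an intron of the neighbouring gene CG4615 (minus strand), 517 bp downstream of the CG4615 TSS, just past the promoter window of 500 bp. The matching summit was 552 bp from the CG4615 TSS in replicate 2 and 498 bp from it in replicate 3, the latter inside that window. This strongest Sxl peak ranked 409 in replicate 2 (signal 152) and 459 in replicate 3 (signal 183), so both libraries placed it at almost the same height. The other 2 summits lay in introns of Sxl. The summit at 7095698 had a signal of 178 (rank 1409), with rank 1340 in replicate 2 (signal 82.2) and rank 1448 in replicate 3 (signal 98.3). The summit at 7096698 had a signal of 167 (rank 1545). Its replicate ranks were further apart, 2532 in replicate 2 (signal 55.1) and 1083 in replicate 3 (signal 116). This last summit was the only one of the 3 in a Sxl promoter, 368 bp downstream of the TSS at 7097066. The sequences at the 3 summits are shown because these had the strongest signals of the optimal summits at the 10 genes. Each is 101 bases of the Sxl strand (minus), from the NCBI RefSeq release 6 assembly (dm6), at chrX:7101733-7101833, chrX:7095648-7095748 and chrX:7096648-7096748 in that order. Capitals mark matches to TATATA, to the E-box CANNTG or to CGATA, on either strand, so that CGATA may read TATCG.
Sxl upstream summit: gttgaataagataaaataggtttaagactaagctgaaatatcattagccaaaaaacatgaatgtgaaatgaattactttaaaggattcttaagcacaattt
Sxl intron summit 1: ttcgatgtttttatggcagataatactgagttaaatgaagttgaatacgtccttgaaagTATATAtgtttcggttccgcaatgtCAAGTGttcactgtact
Sxl intron summit 2: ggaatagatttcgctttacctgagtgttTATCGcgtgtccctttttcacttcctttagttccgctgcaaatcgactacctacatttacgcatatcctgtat

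Sxl is transcribed from 4 annotated TSSs, and no optimal summit lay near the one with the layout of the early promoter. The first TSS, at 7098053, starts 18 transcripts, the TSS at 7097768 starts 1 and the TSS at 7097066 starts 2. The TSS at 7092883 starts 4 transcripts, all 4 with a coding first exon, which is the known arrangement of the early establishment promoter. The intronic summits lay 1355 and 2355 bp downstream of the first TSS, and 3815 and 2815 bp upstream of the TSS at 7092883. No optimal or pooled summit lay within 500 bp of that TSS. Replicate 3 alone had a summit there, at 7093029, with a signal of 17.3 and rank 15638 of 25804. At the first TSS the pooled list had a weak summit at 7098035, 18 bp downstream, with a signal of 32.0 (rank 15600 of 24109). It ranked 19593 in replicate 2 (signal 15.7) and 7692 in replicate 3 (signal 28.3). The strongest Sxl summit short of the optimal list was intronic, at 7086744, with a signal of 57.2 (rank 6777). In all, the Sxl window held 3 summits in the optimal list, 9 in the pooled list, 15 in replicate 2 and 10 in replicate 3.

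**Figure D2:**
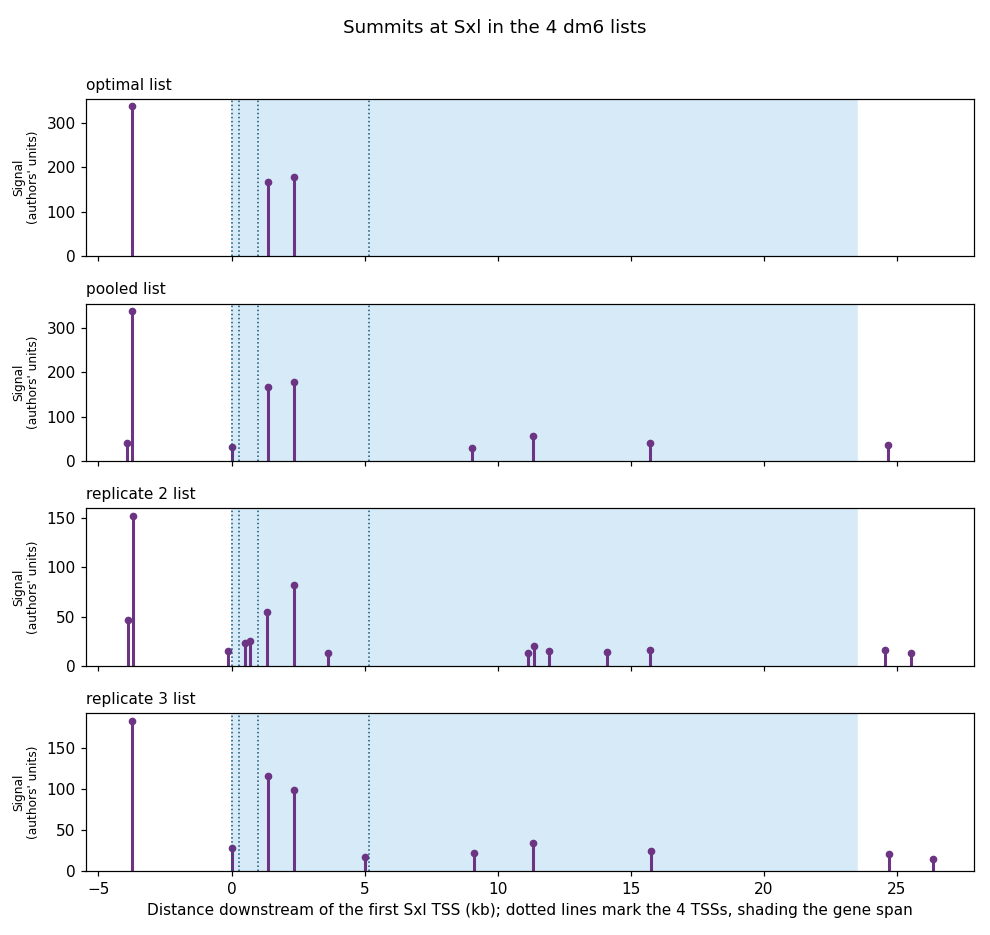
Summits at Sxl in the optimal, pooled, replicate 2 and replicate 3 lists, as signal (the authors' units, each panel on its own scale from 0) against distance downstream of the first Sxl TSS in kb. Dotted lines mark the 4 TSSs and the shading the gene span; the same 3 summits are the tallest in every panel, and none of them is at the fourth TSS.

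The genes of the X-counting signal differed in where their peaks lay. da encodes Daughterless, the broadly expressed bHLH activator that partners the X-linked signal proteins at Sxl (FBgn0267821, 2L:10388105-10393228, plus strand). Its only optimal peak had a signal of 145 (rank 1937), with its summit at 10386496, 1609 bp upstream of the da TSS. That summit lay between 2 divergent genes and within 500 bp of both their TSSs, 166 bp upstream of mRpS7 and 234 bp upstream of Cdk1. The replicates ranked it apart, at 3862 in replicate 2 (signal 41.7) and 1343 in replicate 3 (signal 103). The da promoter itself had a pooled summit at 10388005, 100 bp upstream of its TSS, with a signal of 58.7 (rank 6582). This one ranked 4898 in replicate 2 (signal 35.5) and 9978 in replicate 3 (signal 23.1), the opposite order. emc encodes Extramacrochaetae, a helix-loop-helix protein without a basic region that holds bHLH activators such as Da inactive (FBgn0000575, 3L:749400-753492, plus strand). It had 2 optimal peaks, and for both the nearest protein-coding TSS was its own. The stronger, at 745718, had a signal of 157 (rank 1725), rank 1676 in replicate 2 (signal 71.8) and rank 1814 in replicate 3 (signal 84.6). It lay 3682 bp upstream of the emc TSS, inside an intron of hng3, a gene on the opposite strand whose span contains emc. The weaker, at 749491 in the emc 5′ UTR and 91 bp past its TSS, had a signal of 80.7 and rank 4377, close to the end of the optimal list. It ranked 3793 in replicate 2 (signal 42.3) and 4341 in replicate 3 (signal 44.8). Just outside the list was another emc summit, at 751987 in an intron, with a signal of 71.2 (rank 5158 of the pooled list). The emc upstream summit is shown as the most AT-rich of the 11, with 20.8% G and C in chr3L:745668-745768 (dm6, plus strand, RefSeq). Capitals mark TATATA.
emc upstream summit: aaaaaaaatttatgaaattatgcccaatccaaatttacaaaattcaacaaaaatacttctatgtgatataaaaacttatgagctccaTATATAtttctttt

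tra encodes Transformer, the female splicing regulator whose transcript is a direct target of Sxl (FBgn0003741, 3L:16590059-16591050, minus strand). Its single optimal peak lay beyond its 3′ end, at 16588237, with a signal of 130 (rank 2295). It ranked 2444 in replicate 2 (signal 56.4) and 2469 in replicate 3 (signal 69.0). The summit was 2813 bp from the tra TSS and 238 bp upstream of the TSS of l(3)73Ah, the gene that overlaps the end of tra, so the promoter at this summit was that of l(3)73Ah. A weaker pooled summit at 16588436 (signal 63.7, rank 5970) was 39 bp upstream of the same TSS. No list had a summit within 500 bp of the tra TSS. This sequence is shown because it is the only one of the 11 with the DNA replication-related element (DRE) TATCGATA, a motif found at many fly promoters, and it had the highest share of G and C, 61.4%. It is given on the tra strand (minus) at chr3L:16588187-16588287 (dm6, RefSeq). The first run of capitals is the DRE, which contains CGATA, and the last is a separate CGATA read on the other strand.
tra downstream summit: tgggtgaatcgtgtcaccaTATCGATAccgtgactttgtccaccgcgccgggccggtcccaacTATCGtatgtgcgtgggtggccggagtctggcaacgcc

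tra2 encodes the RNA-binding partner of Transformer, present in both sexes (FBgn0003742, 2R:14602004-14604337, minus strand). Its optimal peak was the second weakest of the 11, with a signal of 104 (rank 3146), rank 4491 in replicate 2 (signal 37.6) and rank 3037 in replicate 3 (signal 59.2). The summit at 14605468 was 1131 bp upstream of tra2 and 171 bp upstream of the TSS of CG12868. The tra2 promoter had its own summit 30 bp upstream of the first TSS, at 14604367, which fell short of the optimal list with a pooled signal of 67.6 (rank 5501). Both replicates held it, with rank 6636 in replicate 2 (signal 28.8) and rank 5557 in replicate 3 (signal 36.6).

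The terminal effectors of sexual differentiation, dsx and ix, carried no optimal peak in their windows, where 49.2% of all protein-coding genes had one. dsx encodes the sex-specific DM-domain transcription factor at the end of the splicing cascade (FBgn0000504, 3R:7924323-7967408, minus strand). Its window of 53086 bp is the longest of the 10, and it held 10 pooled summits with signals of 27.9 to 56.2, all below the weakest optimal peak at 76.1. The strongest was at 7963366, with rank 6910, 580 bp upstream of the downstream dsx TSS at 7962786. In replicate 2 the matching summit, 455 bp upstream of that TSS, had a signal of 22.5 (rank 9974), the strongest of that replicate at dsx. Replicate 3 gave it a signal of 32.5 (rank 6467), below its strongest summit in the dsx window, which was at 7920384 with a signal of 33.9 (rank 6118), 47 bp upstream of a TSS of lds. Of the 10 pooled summits, 4 had a summit within 200 bp in both replicate lists and 6 did not, without a share over all pooled peaks to compare. At the main dsx TSS, the pooled summit at 7967527 had a signal of 27.9 (rank 19615), with a match in replicate 3 (signal 16.0, rank 17841) and none in replicate 2. ix encodes Intersex, a partner of the female Dsx protein and a subunit of Mediator (FBgn0001276, 2R:11359437-11360163, minus strand). Its strongest pooled summit, at 11359205, had a signal of 55.8 (rank 6959) and lay past the 3′ end of ix, 29 bp upstream of the CG12384 TSS. This was also its strongest summit in replicate 3 (signal 37.9, rank 5301). In replicate 2 the strongest was at 11356574, 26 bp inside CG13202 (signal 20.3, rank 12013).

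Of the dosage compensation genes, mle and mof had optimal peaks and msl-2 had none, beside 49.2% of all protein-coding genes with one. Every optimal peak among these genes was at the promoter of another gene. msl-2 encodes the male-limited subunit of the complex, whose translation Sxl blocks in females (FBgn0005616, 2L:3462218-3466112, minus strand). It had the lowest values of the 10 genes. Its pooled summits were at 3462250 in the 3′ UTR (signal 28.9, rank 18397), matched only in replicate 3, and at 3466976, 864 bp upstream (signal 26.3, rank 21772), matched only in replicate 2. In replicate 2 its only summits were nearly level, one in the msl-2 coding exon at 3465233, 879 bp past the TSS (signal 16.4, rank 18093), and the upstream one at 3467125 (signal 16.4, rank 18099). In replicate 3 it was at 3457265, 37 bp upstream of Sec5 (signal 30.3, rank 7059). None of the 4 lists had a summit within 500 bp of the msl-2 TSS. mle encodes the RNA helicase that remodels the roX RNAs of the complex (FBgn0002774, 2R:5974857-5980778, minus strand). Its optimal peak had a signal of 166 (rank 1561), with rank 2111 in replicate 2 (signal 62.1) and rank 1423 in replicate 3 (signal 99.2). The summit at 5974514 lay past the 3′ end of mle and 129 bp upstream of BubR1. No list had a summit within 500 bp of an mle TSS. mof encodes the histone acetyltransferase of the complex, which acetylates histone H4 (FBgn0014340, X:5873840-5876853, minus strand). It had 2 optimal peaks upstream. The summit at 5880661 had a signal of 145 (rank 1938), rank 1518 in replicate 2 (signal 76.3) and rank 2481 in replicate 3 (signal 68.7), and lay in the 5′ UTR of CG16721, 127 bp past one of its TSSs. The summit at 5879681 had a signal of 127 (rank 2371), rank 2022 in replicate 2 (signal 63.9) and rank 3031 in replicate 3 (signal 59.3). It lay in the 5′ UTR of Usp30, 63 bp upstream of the nearest Usp30 TSS and 188 bp upstream of the first TSS of CG16721 on the other strand. At mof itself there was only a pooled summit, in its coding exon 368 bp past the TSS, with a signal of 45.2 (rank 9197).

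Of the 11 optimal summits, the share nearest to the TSS of a neighbour was near that over all protein-coding genes. Within 500 bp of the summit, 2 had the TSS of the gene itself (Sxl and emc), 6 had the TSS of another protein-coding gene and 3 had none. This split was not counted over all protein-coding genes. The nearest protein-coding TSS was the gene's own for 4 of 11 summits (36.4%) at these genes and for 4292 of 12175 pairs of gene and summit (35.3%) over all protein-coding genes, so the share of neighbours was near the background. For da, tra, tra2, mle and mof, every optimal summit was nearest to another gene. By the strongest pooled signal in its window, Sxl was above 91.6% of all protein-coding genes, mle above 76.1%, emc above 74.4%, da and mof above 71.8%, tra above 67.8% and tra2 above 60.7%. Below the middle of the distribution were dsx at 41.9%, ix at 41.6% and msl-2 at 18.6%. The median over the 10 genes was 138, against 73.8 over all protein-coding genes, of which 1853 had no pooled summit and were set to 0. These window values take the strongest summit whichever gene it was nearest to, which for Sxl was CG4615. By the strongest pooled signal within 500 bp of a TSS, Sxl was above 91.7%, emc 81.1%, tra2 77.9%, da 74.9%, mof 69.0% and dsx 56.6%. There, tra, ix, msl-2 and mle had no pooled summit, and 47.0% of all protein-coding genes had one.

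**Figure D3:**
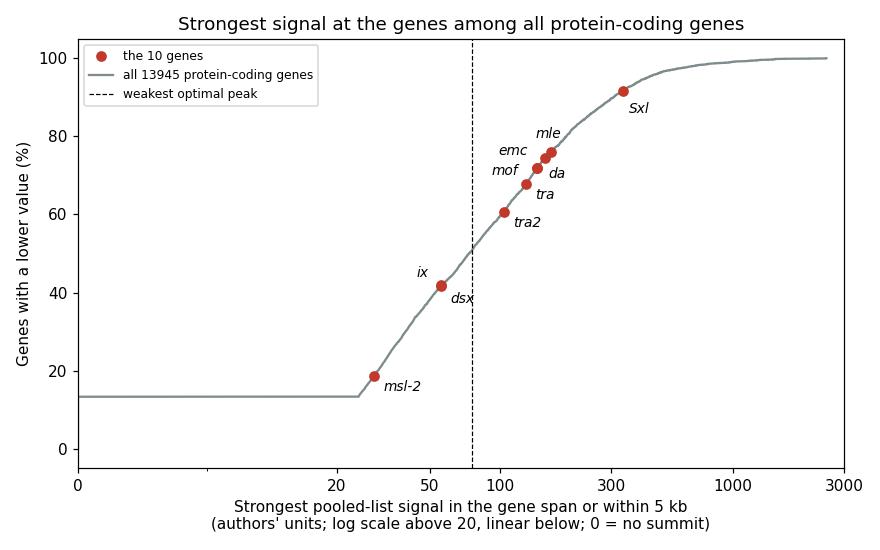
Share of protein-coding genes with a lower value (vertical axis, percent) against the strongest pooled-list signal in the gene span or within 5 kb (horizontal axis, the authors' units, log scale above 20 and linear below). Red points are the 10 genes, the grey line all 13945 protein-coding genes and the dashed line the weakest optimal peak; 7 points lie right of that line and Sxl is the highest.

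Both replicate libraries held all 11 summits. Their summits lay 0 to 70 bp from the optimal ones, and all 11 were among the 4720 strongest peaks of each replicate list, which was so for 3645 of the 4720 optimal peaks overall. Since the optimal peaks were the strongest of the list called on the reads of both replicates, this describes the selected peaks and is not independent evidence. Ranks of the 11 ran from 426 to 4377 in the optimal list (median 1937), from 409 to 4491 in replicate 2 (median 2111) and from 459 to 4341 in replicate 3 (median 1814). The summits at da, tra2 and the Sxl promoter had the widest gaps, each with the better rank in replicate 3, while both mof summits had the better rank in replicate 2. Of the 47 pooled summits at the 10 genes, 36 were below the optimal list, which held 4720 of all 24109 pooled peaks. Of these 36, 24 had a summit within 200 bp in both replicate lists, 1 of them, at 7101991 by Sxl, only through the replicate 3 summit that also matched its stronger neighbour. The share matched in both replicates was not computed over all pooled peaks, so these counts are not set against a background.

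**Figure D4:**
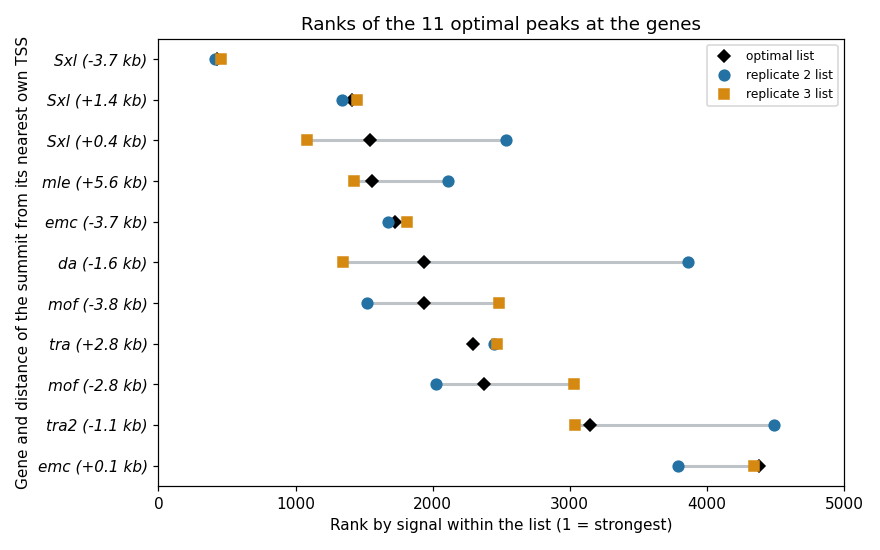
Rank by signal (horizontal axis, 1 is the strongest peak of the list) of the 11 optimal peaks in the optimal list, replicate 2 and replicate 3, ordered by optimal rank, with the distance of the summit from the gene's nearest TSS beside its name. Grey bars join the replicate ranks; the strongest Sxl peak has ranks of 409 and 459, whereas the da peak has 3862 and 1343.

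The 11 summits shared little by sequence among the 7 motifs searched in the 101 bases around each, on both strands. TATATA was at 3 of 11 (Sxl, emc and tra2) and at 7.61% of all optimal summits. CGATA was at 3 of 11 (Sxl, tra and mof) and at 16.9% of all, and the E-box CANNTG at 3 of 11 (Sxl and both mof summits) and at 38.0% of all. The DRE TATCGATA, which contains CGATA, was at 1 of 11 and at 1.99% of all. The GAGA element GAGAG was at 0 of 11, which allows a share of up to 27.3%, and at 472 of all 4720. The same limit holds for core promoter motif 1 GGTCACAC (0.932% of all) and for the Dsx core ACAATGT (1.82% of all), also at 0 of 11. The share of G and C had a median of 34.7% over the 11 summits (20.8 to 61.4%) and also 34.7% over all optimal summits. These are matches of letters, and with 11 summits they say little about any factor.

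A list of 32 other genes of the pathway, 2 of them the noncoding roX RNAs, had an optimal summit in the window of 20 (62.5%, interval 43.7 to 78.9%) and within 500 bp of a TSS of 7 (21.9%, interval 9.28 to 40.0%). The background shares are those given above, 49.2% and 20.1%. Of 9 signal elements and early regulators, 4 had an optimal summit in the window (sisA, gro, her and Stat92E) and gro and Stat92E at a promoter. gro, which encodes the Groucho co-repressor, had the strongest peak of all the pathway genes, with a signal of 566 (rank 123), 132 bp upstream of a TSS. It ranked 94 in replicate 2 and 163 in replicate 3. Of 7 splicing and m6A factors that act on Sxl RNA, 6 had one in the window (snf, vir, fl(2)d, Mettl3, Mettl14 and Ythdc1) and snf, vir and fl(2)d at a promoter. The fl(2)d summit had a signal of 236 (rank 863), 167 bp upstream of its TSS and 138 bp upstream of that of CG13339. The vir summit was 328 bp upstream of its TSS and 183 bp upstream of that of Ice1. The snf summit was 58 bp upstream of its TSS, with a Cdk7 TSS also within 500 bp. The Mettl14 peak, with a signal of 330 (rank 448), was 89 bp upstream of CG7810 and so not at the methyltransferase gene's promoter. The listed partners of Sxl, Unr, how and Hrb27C, all had an optimal summit in the window. At Unr, the co-repressor that Sxl recruits to msl-2 mRNA, the summit was 87 bp upstream of the TSS with a signal of 290 (rank 583).

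Among the effectors and targets, 5 of 7 had an optimal summit in the window (fru, Yp3, bab1, bab2 and Abd-B), beside 49.2% of all protein-coding genes. At a promoter it was 0 of 7, which allows a share of up to 42.9%, beside 20.1% of all protein-coding genes. bab2, the gene of the precipitated protein, had 5 optimal peaks. All 5 were closer to its own TSS than to any other although 10175 bp or more away from it. The strongest, with a signal of 269 (rank 680), lay past the 3′ end of bab2, between bab2 and bab1. It was 37719 bp from the bab2 TSS and almost as close to the bab1 TSS. fru, whose transcripts are spliced by Tra and Tra2, had a signal of 159 (rank 1675) 741 bp upstream of one of its TSSs. Abd-B, the Hox gene of the posterior abdomen, had 2 peaks near the end of the list, with signals of 82.7 and 81.6. Yp1 and Yp2, yolk protein genes controlled by Dsx, had no pooled summit in their windows, and Yp3 had an optimal one at the promoter of rdgB. Of 6 dosage compensation partners, roX2 and JIL-1 had an optimal summit in the window, beside the same 49.2%. JIL-1, which encodes a histone H3 kinase enriched on the male X, had 5 optimal peaks, the strongest intronic with a signal of 482 (rank 174) and another 12 bp upstream of its TSS with a signal of 124 (rank 2462). The 2 summits at roX2 had signals of 161 and 111 and lay nearest to nod and CG11695. msl-1, msl-3, roX1 and Clamp had none. The nearest protein-coding TSS was the gene's own for 27 of the 47 optimal summits at the 32 genes (57.4%), beside the 35.3% over all protein-coding genes, to which the 36.4% of the 10 genes was close. Windows of the 32 genes ran from 10779 bp at sisA to 141314 bp at fru, with bab1 at 74721 bp, Abd-B at 55025 bp and bab2 at 46848 bp. Window length was not accounted for in these shares, nor in the 62.5% of the 32 genes with a summit in the window. The same holds for the counts by group, such as the 5 of 7 effectors and targets.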

How the data were processed

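Peak lists were analysed, not reads. The authors deposited a relaxed list for each replicate and for pooled reads, and an optimal list filtered by irreproducible discovery rate, per the labels' README text. The dm6 lists were used and the dm3 lists were not. Aligner, peak caller, versions and depth are unstated (not given in the sources used here), and control libraries were not analysed here. The signal that the authors deposited for each peak (column 7) served only to rank peaks within a list, since its scaling is not given; another deposited column (10), the offset of the summit, gave the summit positions. Coordinates are 1-based. Genes and TSSs came from Ensembl release 115 on 6 chromosome arms, and sequences from the NCBI RefSeq release 6 FASTA. Summits matched across lists within 200 bp. Motifs were searched within 50 bp. A gene was counted by its span plus 5 kb, or by 500 bp around its TSSs. A count of 0 is given with a limit of 3 over its total. With 1 group and 2 libraries no test was made. The 10 genes are named with every optimal peak, or with their strongest peak per list where they have none; others are named from the pathway list or as nearest genes. The members and lists were chosen with earlier results of these data known. The 2 counting rules were also run, in separate code, on summits planted within 500 bp of a TSS. Every planted gene had to be found there, so this run could not show false hits and does not test the reported counts. Software was Python 3.11.15 with scipy 1.17.1, matplotlib 3.10.9, pandas 2.3.3 and numpy 2.4.6.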

Additional observations from a re-analysis of the deposited data

How the results depend on the processing

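The count of genes with a summit in their window was 7 when the 4720 strongest peaks of replicate 2 (48.5% of all protein-coding genes) or of replicate 3 (49.4%) replaced the optimal list. It was 6 with the stronger 2360 optimal peaks (all but tra2, against 32.9% of all genes), 6 with a flank of 2 kb (all but mof, against 35.8%) and 10 in the pooled list (86.7%), but 2 with no flank (Sxl and emc, against 12.2% of all protein-coding genes). The promoter count was 2 from the strongest peaks of replicate 2 (19.6% of all genes) and of replicate 3 (20.1%). It was 1 with the stronger 2360 peaks (Sxl, against 11.7% of all genes), 1 with 250 bp around the TSS (emc, against 16.0%), 6 in the pooled list (47.0%) and 2 with 1000 bp (23.4%). Distinct summits numbered 12 from either replicate alone, 8 in the stronger 2360 peaks, 7 with a flank of 2 kb, 3 with no flank and 47 in the pooled list. The other pathway genes with a promoter summit numbered 7 from replicate 2, 8 from replicate 3 and 6 with the stronger 2360 peaks. They numbered 5 with 250 bp, 10 with 1000 bp and 20 in the pooled list. The shares of all genes given above for the promoter count apply to the same settings here. The rank of the strongest Sxl peak ran from 409 to 459 between replicates. All 11 summits were matched at 100 and at 400 bp. Motif matches numbered 17 with 100 bp on each side of the summit, against 10 with 50 bp, as a wider window holds more letters. No paired analysis was possible because there is 1 group. Read depth and controls could not be weighed from peak lists, and a summit in a window does not show which gene, if any, it acts on.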
